A study of Mus musculus with 30 samples.

Results

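Naive CD8+ T cells that had been stimulated for 96 h in the same culture as memory cells were compared with naive cells stimulated for 96 h by themselves. The arrays were taken by their titles, 3 for the mixed culture (TN mix) and 3 for the separate culture (TN alone), which are 6 of the 30 arrays of the series. All 19103 genes that lie on autosomes were described, of 19938 genes measured. The naive (TN) cells were Ly5.1 Pmel-1 Tg and the memory (TMem) cells Ly5.2 Pmel-1 Tg, both from spleens of C57BL/6 mice of 6-12 weeks that the labels give as female. Pmel-1 cells carry a transgenic T cell receptor against a melanocyte antigen, and Ly5 is a congenic marker by which sorting can part the cell types again. The TMem cells were differentiated in vitro. Every group was sorted by flow cytometry, and stimulated cells received IL-2 together with antibodies against CD3 and CD28. Further groups of 3 arrays served to place the values, namely TMem mix and TMem alone at 96 h, TN mix and TN alone at 18 h, and TN alone at 0 h. The labels call the 3 samples of a group biological repeats.

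When a naive CD8+ T cell is stimulated it leaves a resting programme kept by factors such as KLF2, grows, divides and takes on granzymes, effector cytokines and new homing receptors. Growth draws on glycolysis and on the synthesis of fatty acids and sterols, which the SREBP factors control, while HIF-1 governs the transcriptional response to low oxygen and ATF4 the response to a shortage of amino acids. Signals through the receptor are read in the fast induction of NR4A, EGR and AP-1 factors. A memory cell answers the same stimulus with more effector molecules than a naive cell does. The comparison asked what the presence of memory cells did to the naive cells of the same culture.

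Array quality and identity came first. Array values were log2 probe set values between 2.05 and 14.2, with array medians between 6.76 and 6.94, and 3 arrays per group set the limit of the precision. Replicates correlated over all genes at 0.9897 to 0.995 in TN mix and at 0.9955 to 0.9971 in TN alone. The defining markers of CD8+ T cells were high in both groups. Cd8a, the CD8 alpha chain, read 12.17, 12.17 and 12.24 in TN mix, against 12.27, 12.31 and 12.28 in TN alone. Cd3e, a chain of the receptor complex, read 12.80, 12.48 and 12.51 in TN mix, against 12.79, 12.73 and 12.73 in TN alone. Cd4 stayed at or below 6.86 in TN mix and 6.58 in TN alone, and the B cell marker Ms4a1 at or below 4.78 in TN mix and 4.83 in TN alone. Not all transcripts of other cells were low. The myeloid gene Lyz2 read 5.29 to 5.73 in TN mix but 8.20 to 8.37 in TN alone. The MHC class II gene H2-Aa read 6.53 to 6.75 in TN mix but 9.35 to 9.54 in TN alone. The marker lists as wholes are given further below.

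The sex-linked transcripts differed from the labelled sex. Eif2s3y, a Y-linked gene, read 7.34, 7.70 and 7.89 in TN mix at 96 h, against 4.17, 4.20 and 4.13 in TN alone at 96 h. Kdm5d, also Y-linked, read 7.11, 7.38 and 7.39 in TN mix, against 5.58, 5.27 and 5.31 in TN alone. Uty, the third Y-linked gene followed, read 6.91, 6.83 and 7.12 in TN mix, against 4.43, 4.28 and 4.36 in TN alone. At 96 h all 3 transcripts were far higher in TN mix than in TN alone, although the labels give female mice throughout. Eif2s3y was also high in TN mix at 18 h (8.21 to 8.50) and in TN alone at 18 h (8.09 to 8.25), whose culture held no TMem cells, and it was low in TN alone at 0 h (4.0 to 4.58). All TMem arrays lay between 8.82 and 9.51. Xist, which is transcribed from the inactive X chromosome of females and was chosen after its values were seen, read 11.74, 11.07 and 11.78 in TN mix at 96 h, against 12.11, 12.11 and 12.10 in TN alone at 96 h, while the TMem arrays lay between 4.99 and 6.02. On a linear scale on which TN alone at 96 h is 0% and TMem mix at 96 h is 100%, the Y-linked genes of the 3 TN mix arrays stood at 24.8% to 38.1%. Xist, which falls along the same scale, stood at 22.8%, 51.6% and 20.4% in replicates 1, 2 and 3, with replicate 2 apart from the others. Gzmd, a granzyme of the memory cells, stood at 0.3%, 1.6% and 1.8% on the same scale. The 96 h groups thus differed in Y-linked signal as well as in culture, and the sex or source of the donors and the mixing cannot be told apart in the comparison.

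**Figure D1:**
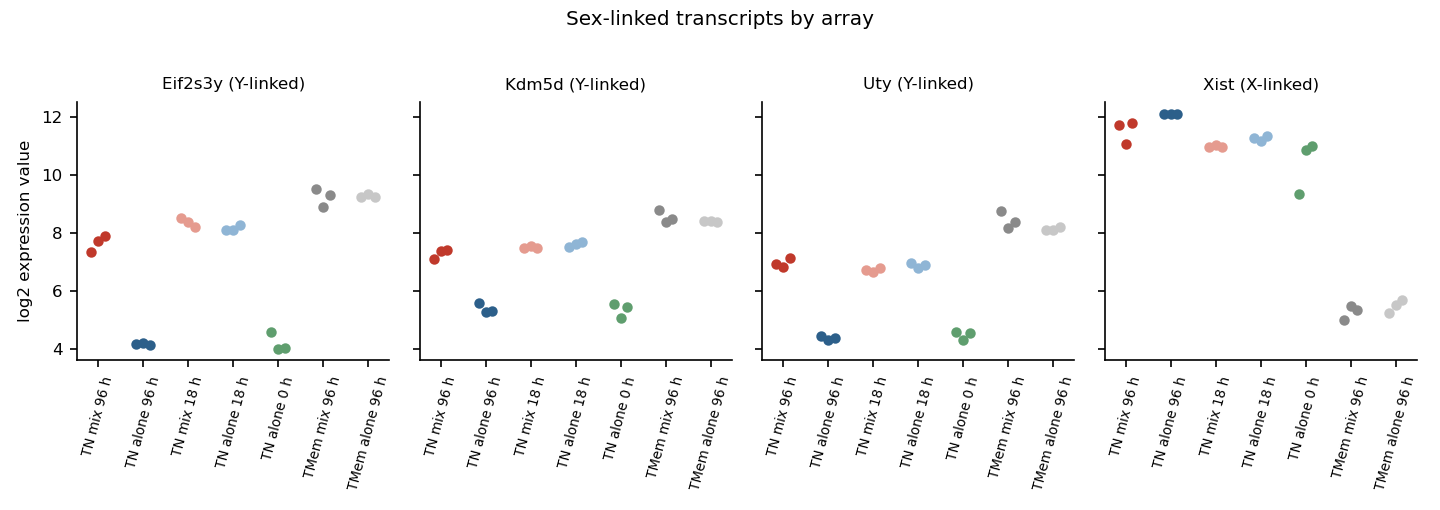
The log2 values of Eif2s3y, Kdm5d, Uty and Xist are plotted for each array in TN mix and TN alone at 96 h, TN mix and TN alone at 18 h, TN alone at 0 h, and TMem mix and TMem alone at 96 h, with 1 dot per array. The Y-linked genes are high in TN mix at 96 h (Eif2s3y 7.34 to 7.89) and low in TN alone at 96 h (4.13 to 4.20), and Xist is high in every TN group.

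Naive cells from the mixed culture differed from those of the separate culture in both directions across the genome. At an adjusted p under 0.05 (limma, Benjamini-Hochberg adjustment over all genes), 1341 genes were higher in TN mix than in TN alone (7.02% of the autosomal genes) and 699 were lower (3.66%). By the larger size of at least 1 on the log2 scale, 111 were higher (0.581%) and 67 lower (0.351%). The 3 and 3 arrays of 5343 genes (28.0%) did not overlap. Higher calls made up 65.7% of all calls, against 49.2% after each array was centred on its median and 51.2% after quantile normalization, so the excess of rises over falls was not kept under those scalings. The count of rises fell to 892 without TN mix replicate 2 and the count of falls to 434 without TN alone replicate 2. The median difference over all autosomal genes was 0.05. Calls were spread over the genome, at 7.79% of the genes of chromosome 2 to 13.4% of those of chromosome 18.

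Of the 111 large rises, 34 were members of 6 lists of lipid, hypoxia, glucose, metal and ATF4 genes, which held 30 to 47 autosomal genes each. Of the 67 large falls, 4 were in the list of cytokines and chemokines (42 genes) and 5 in that of homing receptors and integrins (37 genes). MHC class II genes and markers of other cells, in lists of 5 to 24, held 14. These sets overlap, as Gpr83 stood both in the homing list and among the markers. Over all 19103 genes the shares were 0.581% for large rises and 0.351% for large falls. The lists were chosen with earlier results of these data known. With the Gzmd share of TMem mix signal taken away from each TN mix array, all 111 rises and 67 falls were still called. That share was only 0.3%, 1.6% and 1.8%, so the step could change little and kept the calls almost by construction. The larger share at which the Y-linked genes stood (24.8% to 38.1%) was not taken away. The part of TMem signal in these calls was not tested. Among the 111 large rises, the mean of TN mix lay between those of TN alone and TMem mix for 84 genes. Of the 94 with a large enough gap to be placed, 58 were over 50% of the way from TN alone to TMem mix, and the median position was 60.9%. Of the 67 large falls, 36 lay between the 2 groups, and the median position of the 45 that could be placed was 86.8%. On the linear scale a fall of at least 1 takes up about 50% or more of the gap by construction. The rises have no such bound, so the 2 medians cannot be compared. In bulk RNA a different number of cells that transcribe a gene and a different amount of RNA per cell cannot be told apart.

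The largest rise of all was that of Scd1, the stearoyl-CoA desaturase that makes monounsaturated fatty acids. Scd1 read 10.21, 10.27 and 10.04 in TN mix, against 5.56, 5.63 and 5.27 in TN alone. It was 25.8-fold higher in TN mix (log2 difference 4.69 ± 0.35 SE, adjusted p = 1.54e-10), with TN alone below the lower quartile of the arrays (5.92). The TMem mix arrays averaged 11.47, and the TN mix level was at 39.9% of the way to them. Scd2, a second desaturase of the same kind, read 12.38, 12.31 and 12.38 in TN mix, against 10.48, 10.64 and 10.57 in TN alone, with an adjusted p of 1.27e-09. Fads2, which places a double bond early in polyunsaturated fatty acids, read 10.78, 10.84 and 10.78 in TN mix, against 8.76, 8.78 and 8.88 in TN alone, a 3.98-fold difference (adjusted p = 6.55e-12). Both were close under the TMem mix level, at 84.3% of the way for Scd2 and 86.6% for Fads2.

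The rise ran through the path of fatty acid synthesis without including every step. Of 37 autosomal members measured, 16 were higher in TN mix and 1 was lower, with a median difference of 0.24 over the list against 0.05 over all genes. Desaturases led with 5 of 8 higher, followed by 4 of 7 synthesis genes, 3 of 7 elongases and 3 of 10 genes of activation and storage. Fads1, which acts after Fads2 in the same chain, differed by 1.05, and the citrate carrier Slc25a1, which feeds synthesis from the mitochondrion, by 0.67. Dgat1, which closes triglycerides, differed by 1.13 and the phosphatase Lpin1 by 0.91. Fasn, the synthase itself, did not pass (0.18, adjusted p = 0.211). The regulator Srebf1 was higher by 0.56 (adjusted p = 7.08e-06), and the only fall was that of Pparg, a lipid-sensing nuclear receptor, by 0.45.

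Cholesterol synthesis was the most evenly raised list. All 16 synthesis enzymes measured on autosomes were called higher in TN mix, with differences of 0.46 to 1.50 and a median of 0.87. Hmgcs1, the enzyme before the rate-limiting reductase, read 10.17, 10.50 and 10.40 in TN mix, against 8.93, 9.05 and 9.0 in TN alone, which is 2.57-fold higher (adjusted p = 3.27e-11). Msmo1, a sterol oxidase late in the path, read 10.08, 10.76 and 10.68 in TN mix, against 8.93, 9.06 and 9.03 in TN alone. The groups were well apart for both, and between them Cyp51 (1.27), Sqle (1.11) and Lss (1.11), which form and trim the sterol ring, also rose. Insig1, which holds SREBP back in the endoplasmic reticulum when sterols abound and is itself an SREBP target, read 10.80, 11.15 and 11.04 in TN mix, against 9.49, 9.58 and 9.54 in TN alone. It was 2.76-fold higher (adjusted p = 2.75e-13) and at 97.6% of the way from TN alone to TMem mix. Srebf2, the main factor of the path, was higher by 0.60 and the sterol carrier Stard4 by 0.97. Over the whole list of 30, 21 were higher and 1 was lower, with a median of 0.57. The fall was that of Scap, the SREBP escort protein, by 0.28 (adjusted p = 0.0471), and it was not called with the replicate number as a block (adjusted p = 0.0631) or without TN mix replicate 2 or 3 or any of the TN alone replicates.

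The promoter of Hmgcs1 is shown because it held the only match among the raised cholesterol genes to a sterol element word. The stretch lies at chr13:119690195-119690350 on the plus strand (RefSeq, GRCm38.p6) and ends near the start of transcription. Capitals mark the word CACCCCAC, which was searched on both strands within the 250 bases before each start.
Hmgcs1: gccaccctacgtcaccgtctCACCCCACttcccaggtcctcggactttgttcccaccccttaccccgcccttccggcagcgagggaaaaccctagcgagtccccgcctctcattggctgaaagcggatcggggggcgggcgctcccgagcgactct
The word was found in 1 of 18 promoters of the raised members (5.56%), in none of the promoters of the other members, and in 2.58% of all 32851 promoters. A match is a description and not a site or a cause.

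Hypoxia response genes rose next to the lipid genes. Of 47 members, 28 were higher in TN mix and none was lower, with a median difference of 0.47. Ak4, a mitochondrial adenylate kinase, read 10.34, 10.50 and 10.33 in TN mix, against 6.61, 7.07 and 7.02 in TN alone. It was 11.2-fold higher (log2 difference 3.49 ± 0.25 SE, adjusted p = 8.98e-11). Bnip3, which marks mitochondria for removal, read 11.36, 11.66 and 11.40 in TN mix, against 8.35, 8.54 and 8.47 in TN alone, an 8.11-fold difference (adjusted p = 8.99e-11). Each stood a little over 60% of the way to TMem mix, at 61.8% for Ak4 and 61.0% for Bnip3. Egln3, an oxygen-sensing prolyl hydroxylase that HIF-1 induces, read 10.61, 10.60 and 10.54 in TN mix, against 8.24, 8.29 and 8.33 in TN alone (adjusted p = 9.36e-10). Hif1a itself was higher by 0.81 (adjusted p = 4.56e-06). The secreted and matrix members Vegfa (0.94), P4ha1 (1.24) and Plod2 (1.49), an angiogenic factor and enzymes of collagen, moved the same way, and so did the stress genes Ndrg1 (1.27) and Ddit4 (0.96). At 18 h TN mix and TN alone differed by 0.655 for Ak4 (adjusted p = 0.0838), 0.04 for Bnip3 and 0.17 for Egln3. None of these 18 h differences passed the test.

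Glucose uptake, glycolysis and glycogen genes moved with them. Of 42 members, 24 were higher and 2 were lower, with a median of 0.38. Slc2a1, the main glucose carrier of activated T cells, read 12.12, 11.95 and 11.89 in TN mix, against 10.56, 10.57 and 10.53 in TN alone, a 2.69-fold difference (adjusted p = 4.08e-09). Slc16a3, which exports lactate, read 9.82, 10.12 and 9.79 in TN mix, against 7.80, 7.52 and 7.69 in TN alone, a 4.72-fold difference (adjusted p = 4.96e-10). Aldoc, an aldolase, read 9.53, 9.69 and 9.79 in TN mix, against 6.86, 6.96 and 7.10 in TN alone (adjusted p = 8.27e-12). Uptake and export thus rose together with the enzymes, of which 10 of 16 were called higher, among them Pfkl (1.10), Tpi1 (0.95) and Pkm (0.62). Glycogen genes were raised in 6 of 8 cases, as for the synthase Gys1 (1.12) and the mutase Pgm1 (1.25). The falls were Eno3, an enolase known from muscle, by 0.66 and Pdk2, a kinase that limits the entry of pyruvate into the mitochondrial cycle, by 0.64, while its relative Pdk1 was higher by 0.74.

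The promoters of Bnip3 and Slc16a3 are shown because both genes rose strongly and carry ACGTG, the core of the word that HIF-1 is known to bind. Bnip3 is given at chr7:138909507-138909634 on the minus strand and Slc16a3 at chr11:120949020-120949066 on the plus strand (RefSeq, GRCm38.p6). Capitals mark the word, searched on both strands in the 250 bases before the start, and in Bnip3 the 6 letters read as ACGTG on either strand.
Bnip3: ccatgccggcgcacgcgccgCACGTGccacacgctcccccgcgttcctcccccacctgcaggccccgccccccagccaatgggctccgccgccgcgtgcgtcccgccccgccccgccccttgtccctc
Slc16a3: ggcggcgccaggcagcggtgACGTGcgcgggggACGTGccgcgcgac
The word was present in 15 of 31 promoters of the raised hypoxia genes (48.4%) and in 8 of 19 of the other hypoxia genes (42.1%). Of the glycolysis promoters, 16 of 32 held it among raised genes (50.0%) and 9 of 22 among the others (40.9%). Over all promoters the share was 16.6%, below the shares of raised and other members alike.

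**Figure D2:**
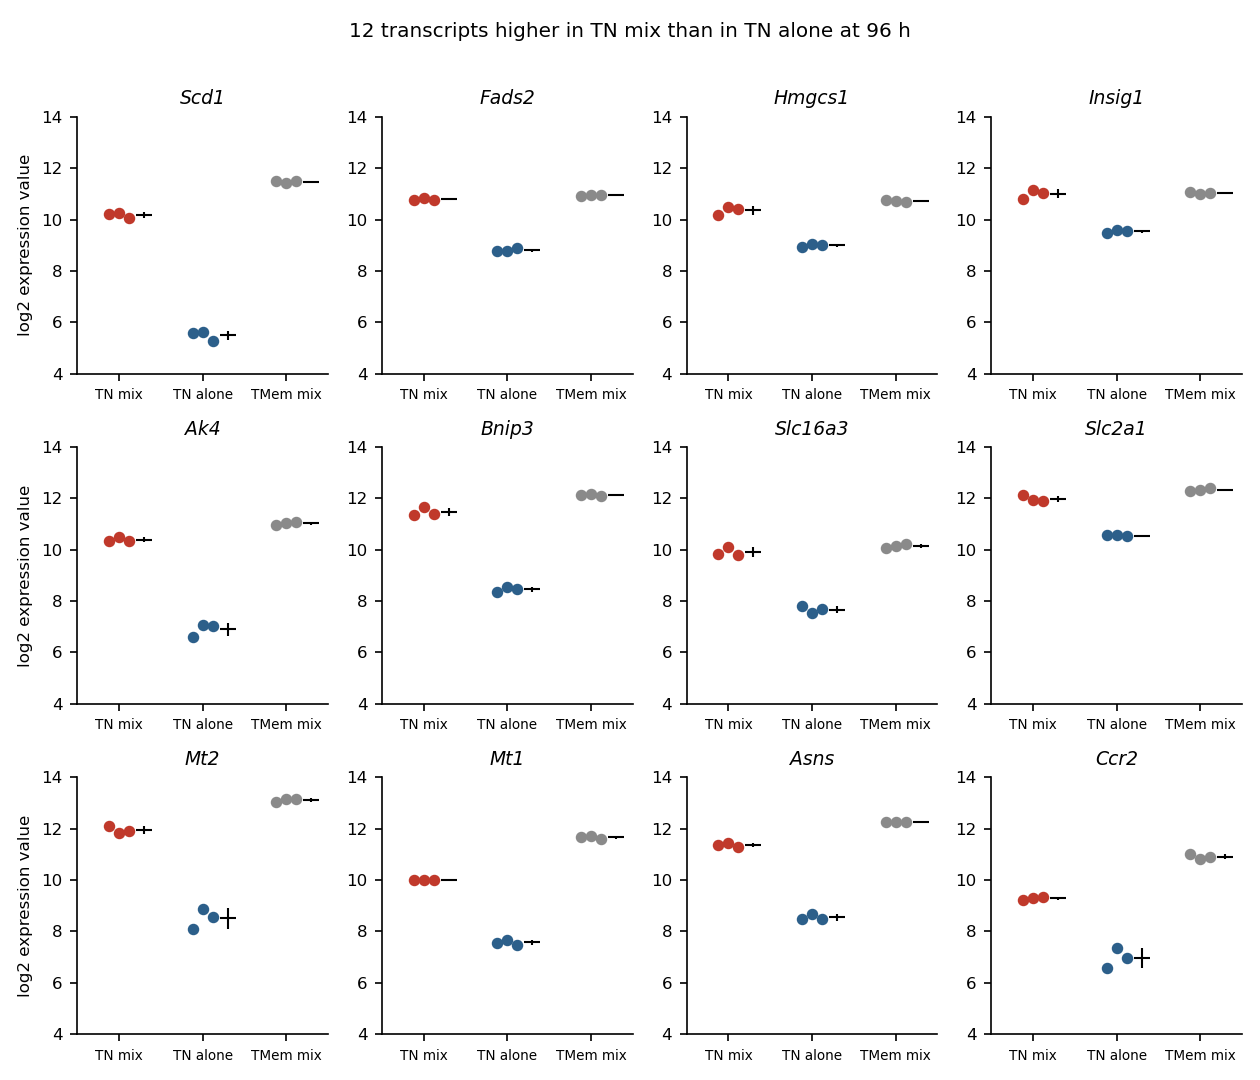
For selected genes that were higher in TN mix, dots show the log2 value of each of the 3 arrays of TN mix, TN alone and TMem mix at 96 h, and bars the mean ± SD. Scd1, Ak4, Mt2 and Bnip3 show the widest gaps between TN mix and TN alone, and the TN mix values of Scd1 (10.04 to 10.27) stay below the TMem mix mean of 11.47.

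Mt1 and Mt2, metallothioneins that bind zinc and copper, were among the strongest rises, while the other metallothioneins on the arrays, Mt3 (-0.13, adjusted p = 0.485) and Mt4 (0.09, adjusted p = 0.782), did not pass. Mt2 read 12.11, 11.82 and 11.91 in TN mix, against 8.08, 8.88 and 8.57 in TN alone, which is 10.8-fold higher (log2 difference 3.44 ± 0.27 SE, adjusted p = 4.36e-10). Mt1 read 10.012, 10.005 and 10.004 in TN mix, against 7.558, 7.667 and 7.478 in TN alone, which is 5.42-fold higher (adjusted p = 7.5e-09). Both stayed well under the memory cells, at 42.3% and 27.7% of the way for Mt2 and Mt1. Slc30a1, the zinc exporter that MTF-1 controls together with the metallothioneins, was higher by 0.50, and Mtf1 itself did not pass (-0.14, adjusted p = 0.383). Slc39a10, a zinc importer, was lower by 0.93 and lay below both TN alone and TMem mix. Of the iron genes the transferrin receptor Tfrc (0.59) and haem oxygenase Hmox1 (0.89) rose. Over the 33 members of the metal list, 12 were higher and 2 lower, with a median of 0.14, and the lower count was 1 without TN mix replicate 3 or TN alone replicate 2.

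The promoters of Mt2 and Mt1 are shown because metal response elements are the textbook route to these genes. Mt2 is given at chr8:94172375-94172617 and Mt1 at chr8:94179046-94179088, both on the plus strand (RefSeq, GRCm38.p6). Capitals mark the core words TGCACNC or TGCGCNC, searched on both strands in the 250 bases before each start, and the last one of Mt2 is read on the other strand.
Mt2: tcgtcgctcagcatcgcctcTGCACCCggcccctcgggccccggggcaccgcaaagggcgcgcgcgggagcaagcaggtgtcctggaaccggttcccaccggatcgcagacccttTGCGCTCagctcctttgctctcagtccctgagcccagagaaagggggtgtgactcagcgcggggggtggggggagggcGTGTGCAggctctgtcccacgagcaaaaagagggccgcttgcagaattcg
Mt1: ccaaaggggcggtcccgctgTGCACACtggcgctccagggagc
Such a word stood in 5 of 12 promoters of the raised metal genes (41.7%), in 8 of 23 of the other members (34.8%) and in 21.4% of all promoters.

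Genes of the ATF4 response and of amino acid supply rose in TN mix, 22 of 45 higher and none lower, with a median of 0.27. Asns, the asparagine synthetase, read 11.34, 11.45 and 11.27 in TN mix, against 8.47, 8.69 and 8.46 in TN alone. It was 7.02-fold higher (adjusted p = 7.9e-08) and at 50.0% of the way to TMem mix. Atf3, a stress factor downstream of ATF4, read 8.91, 9.04 and 8.96 in TN mix, against 7.43, 7.36 and 7.30 in TN alone (adjusted p = 1.15e-08). The arrays of the groups were far apart for both genes. Smaller rises were those of Gpt2, a transaminase (1.37), the glycine carrier Slc6a9 (1.28), the neutral amino acid carrier Slc1a4 (1.08), Chac1, which degrades glutathione (1.16), and Atf4 (0.51). The promoter of Asns is shown for its match to TGATGNAAN, the shape of the element by which ATF4 is known to act on this gene, at chr6:7693210-7693252 on the minus strand (RefSeq, GRCm38.p6), with the match in capitals.
Asns: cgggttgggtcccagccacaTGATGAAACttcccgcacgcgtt
The same search on both strands found the word in 6 of 24 promoters of raised members (25%), in 3 of 24 of the others (12.5%) and in 3.44% of all promoters.

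Other metabolic and growth lists had few calls by number, where 7.02% of all autosomal genes were higher and 3.66% lower. Lower shares were near that background, at 4.55% for electron transport, 4.35% for fatty acid oxidation, 3.12% for S phase and 3.45% for ribosome assembly. Their higher shares, 0% to 3.45%, were under 7.02% in lists of 23 to 44 genes. Those of G2 and mitosis (16.1%) and the unfolded protein response were above it. Whether these lists differed from all genes was not tested. Of 44 genes of the electron transport chain, none was higher and 2 were lower, with a median of -0.05. Fatty acid oxidation had none higher and 1 lower of 23, Cd36, a fatty acid carrier at low level (lower by 0.52). S phase genes had 1 lower of 32, Cdc45, which lost its call with the replicate block (adjusted p = 0.0508), and ribosome assembly 1 higher and 1 lower of 29. Counts of 0, 1 or 2 in these lists came out between 0 and 2 with single arrays left out. They were larger under other settings, with lower counts of 5 for electron transport and 4 for S phase after quantile normalization, 7 for ribosome assembly without the 0 h arrays, and 11 for electron transport and 12 for ribosome assembly with array weights, where fatty acid oxidation had 6 higher. Of 31 genes of G2 and mitosis, 5 were higher, including the kinetochore histone Cenpa (0.45) and Prc1 of the spindle midzone (0.47), and 3 remained without TN alone replicate 1. Of 25 genes of the unfolded protein response, 5 were higher and 2 lower, with the higher count at 2 without TN mix replicate 2, and at 3 without TN mix replicate 3 or TN alone replicate 1. Atf6, a sensor of the endoplasmic reticulum, stood out there with 9.33, 9.51 and 9.37 in TN mix, against 7.72, 7.84 and 7.93 in TN alone (log2 difference 1.57, adjusted p = 1.66e-08), while the sensor Ern1 was lower by 0.58 and Xbp1, its target, by 0.41.

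**Figure D3:**
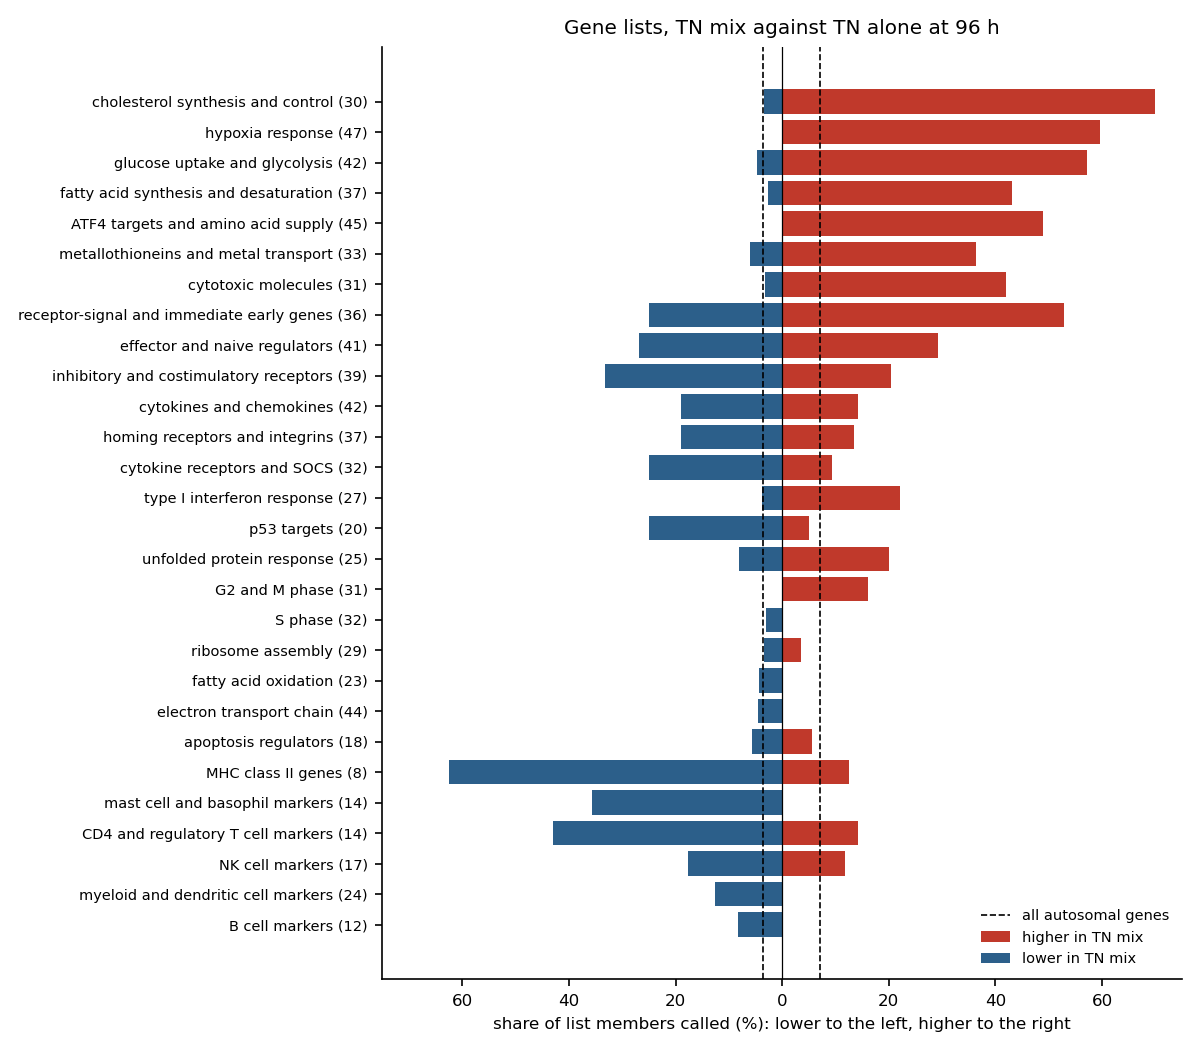
For each gene list the share of its members called at an adjusted p under 0.05 is drawn to the right where higher in TN mix and to the left where lower, and dashed lines give the shares over all autosomal genes (7.02% and 3.66%). The cholesterol list reaches furthest to the right with 21 of 30 members, and the MHC class II list furthest to the left with 5 of 8.

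Ifng, the main effector cytokine of CD8+ T cells, was lower in mixed naive cells at 96 h. It read 7.80, 8.0 and 7.80 in TN mix, against 10.08, 10.23 and 10.23 in TN alone, a 4.98-fold lower level (log2 difference -2.32 ± 0.45 SE, adjusted p = 0.000593). TMem mix averaged 9.55, so the TN mix level also lay below that of the memory cells of the same culture (adjusted p = 0.0113). At 18 h the difference had been 1.14 in the other direction without passing the test (adjusted p = 0.0927). Xcl1, a chemokine that draws cross-presenting dendritic cells, read 7.86, 7.98 and 7.83 in TN mix, against 9.75, 10.05 and 9.78 in TN alone, 3.92-fold lower (adjusted p = 3.95e-06). Ccl3, an inflammatory chemokine, read 9.47, 9.39 and 9.32 in TN mix, against 10.60, 10.98 and 10.74 in TN alone, 2.60-fold lower (adjusted p = 0.00795). In TN alone at 18 h the means were 10.54 for Ifng, 12.94 for Xcl1 and 12.84 for Ccl3, so Xcl1 and Ccl3 had been far above their 96 h level there and Ifng close to it.

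Other cytokine and ligand genes went the other way, so the family did not move as one. Il10, which restrains inflammation, read 7.11, 7.38 and 6.96 in TN mix, against 6.11, 6.34 and 5.94 in TN alone (adjusted p = 1.58e-05). Fasl, the ligand of the death receptor Fas, read 7.15, 8.15 and 7.82 in TN mix, against 6.27, 6.43 and 6.27 in TN alone (adjusted p = 2.91e-05), with replicate 1 the lowest of its group. Ccl5 was higher by 0.86 and Cxcl10 by 0.81, and Tnfsf4 (OX40 ligand) and Tnfsf10 (TRAIL) were lower by 1.16 and 0.96. Of 42 cytokine and chemokine genes, 6 were higher and 8 lower, with a median of -0.04.

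Homing receptors moved in both directions. Ccr2, a receptor for inflammatory chemokines, read 9.23, 9.28 and 9.35 in TN mix, against 6.58, 7.33 and 6.96 in TN alone, 5.05-fold higher (adjusted p = 9.85e-06) and at 28.1% of the way to TMem mix. Itgae, the CD103 integrin that holds T cells to epithelium, read 8.39, 8.67 and 8.42 in TN mix, against 10.53, 10.54 and 10.60 in TN alone, 4.17-fold lower (adjusted p = 2.93e-06), with TMem mix at 6.44. S1pr1, which lets T cells leave lymphoid organs, read 7.92, 7.88 and 7.82 in TN mix, against 9.19, 8.92 and 8.97 in TN alone, 2.23-fold lower (adjusted p = 8.98e-11). The fall of S1pr1 was of like size at 18 h (-1.20), and the difference between the times did not pass (adjusted p = 0.839). Ccr4 read 8.21, 8.53 and 8.24 in TN mix, against 9.81, 10.17 and 10.10 in TN alone, and Ccr9, the receptor for gut homing, 5.89, 5.58 and 5.91 in TN mix, against 7.40, 7.95 and 6.92 in TN alone. Both fell, by 1.70 and 1.63. Of 37 members of the list, 5 were higher and 7 lower, with a median of 0.01, and the higher count was 2 without TN mix replicate 2 and 3 without TN alone replicate 1.

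**Figure D4:**
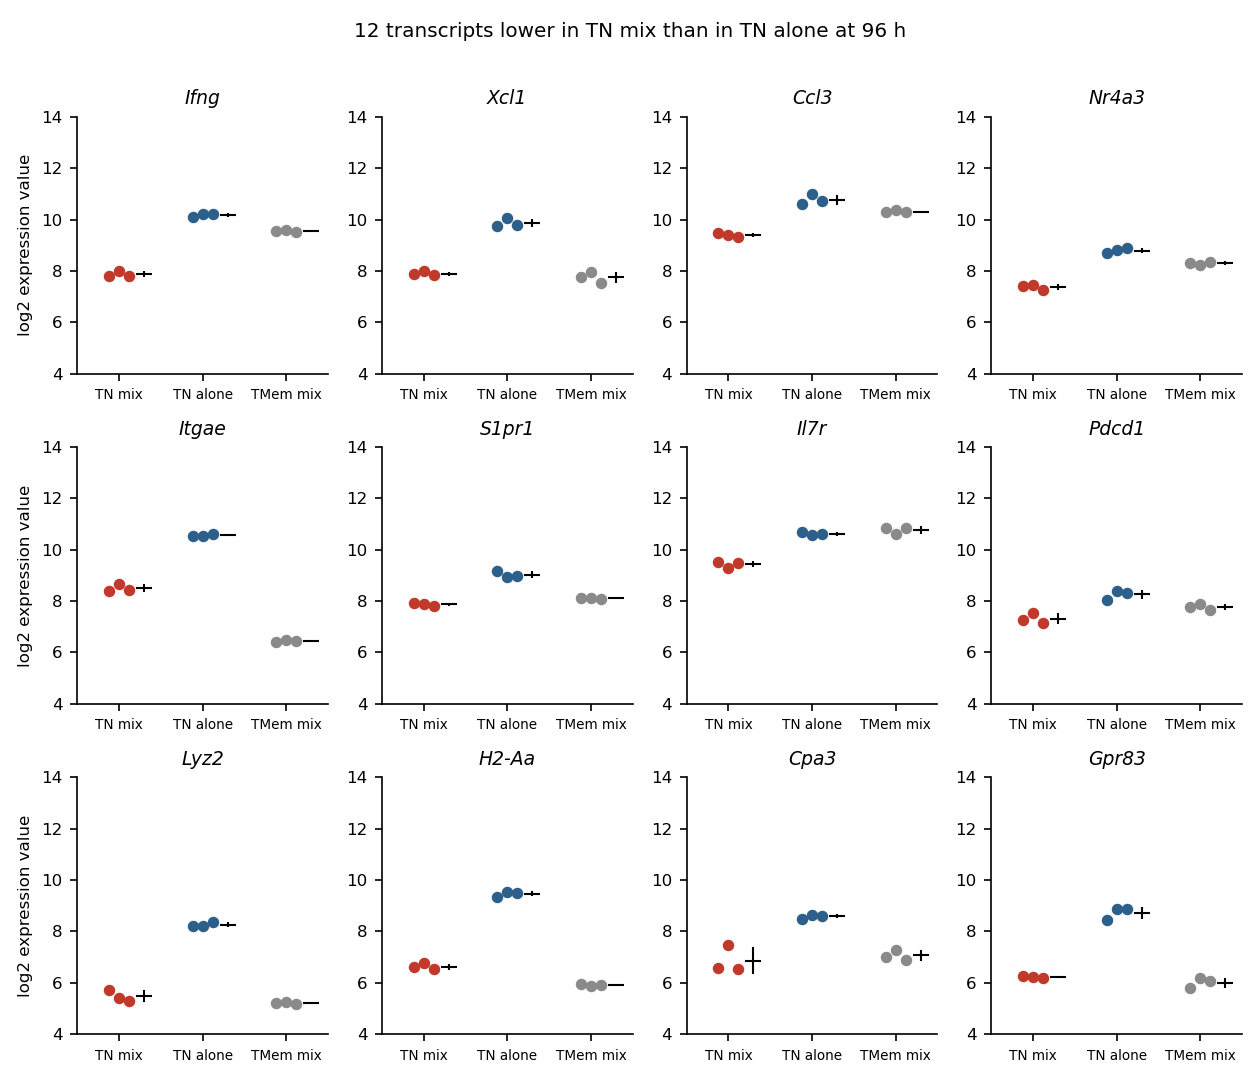
For selected genes that were lower in TN mix, dots show the log2 value of each of the 3 arrays of TN mix, TN alone and TMem mix at 96 h, and bars the mean ± SD. The arrays of TN mix and TN alone do not overlap for any gene shown. The genes were selected among the falls, so this follows in large part from the choice. Over all autosomal genes the share without overlap was 28.0%. For Ifng, Nr4a3, Pdcd1, Il7r, Ccl3, S1pr1 and Cpa3 the TN mix arrays average less than those of TMem mix as well.

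The cytotoxic genes showed how far the mixed naive cells stood from memory cells. Gzmb and Prf1, granzyme B and the pore-forming perforin, did not pass (-0.08, adjusted p = 0.637, and 0.22, adjusted p = 0.401), and neither did Gzma (0.09, adjusted p = 0.861). Gzmk read 7.30, 7.48 and 7.13 in TN mix, against 6.00, 6.14 and 6.01 in TN alone (adjusted p = 0.000111). Gzmd read 5.08, 5.88 and 6.00 in TN mix, against 4.71, 5.21 and 4.38 in TN alone (adjusted p = 0.00214), while TMem mix averaged 11.01. Its arrays overlapped between the TN groups, and both TN means lay under the lower quartile of their arrays. Gzmc went down, at 6.88, 7.31 and 7.31 in TN mix, against 7.83, 8.34 and 8.04 in TN alone, with TMem mix at 10.04 (adjusted p = 0.00565). Protease inhibitors, some of which shield a killer cell from its own granzymes, rose more clearly. Serpinb6a was higher by 1.58, Serpinb6b by 1.59 and Serpinb9 by 0.79, and the granule release genes Rab27a (0.56) and Stx11 (0.59) rose as well. Of 31 members, 13 were higher and 1 lower, with a median of 0.17.

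Across the 31 transcripts that were at least 3 higher on the log2 scale in TMem mix than in TN alone, the mixed naive cells took up very different shares of the gap. The median position was 12.4%, within a range of -5.2% to 61.8%. Gzme, Klrc1, Prf1 and Gzmd, markers of cytotoxic memory and effector cells, were at 0.36%, 0.17%, 1.10% and 1.23%. The granzymes Gzmg and Gzmk stood higher, at 4.23% and 12.4%, and the granzyme inhibitor Serpinb6b at 24.3%. Tnfrsf8 and Havcr2, the receptors CD30 and TIM-3, lay below TN alone at -5.2% and -3.0%. Klrk1, the NKG2D receptor, was at 24.3% and Ly6a2 at 14.6%. Only 4 of the 31 reached 50% or more, Asns, Aldoc, Bnip3 and Ak4, all of them metabolic or stress genes. Of the 31, 8 lay within 3% of TN alone and 17 over 10%.

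**Figure D5:**
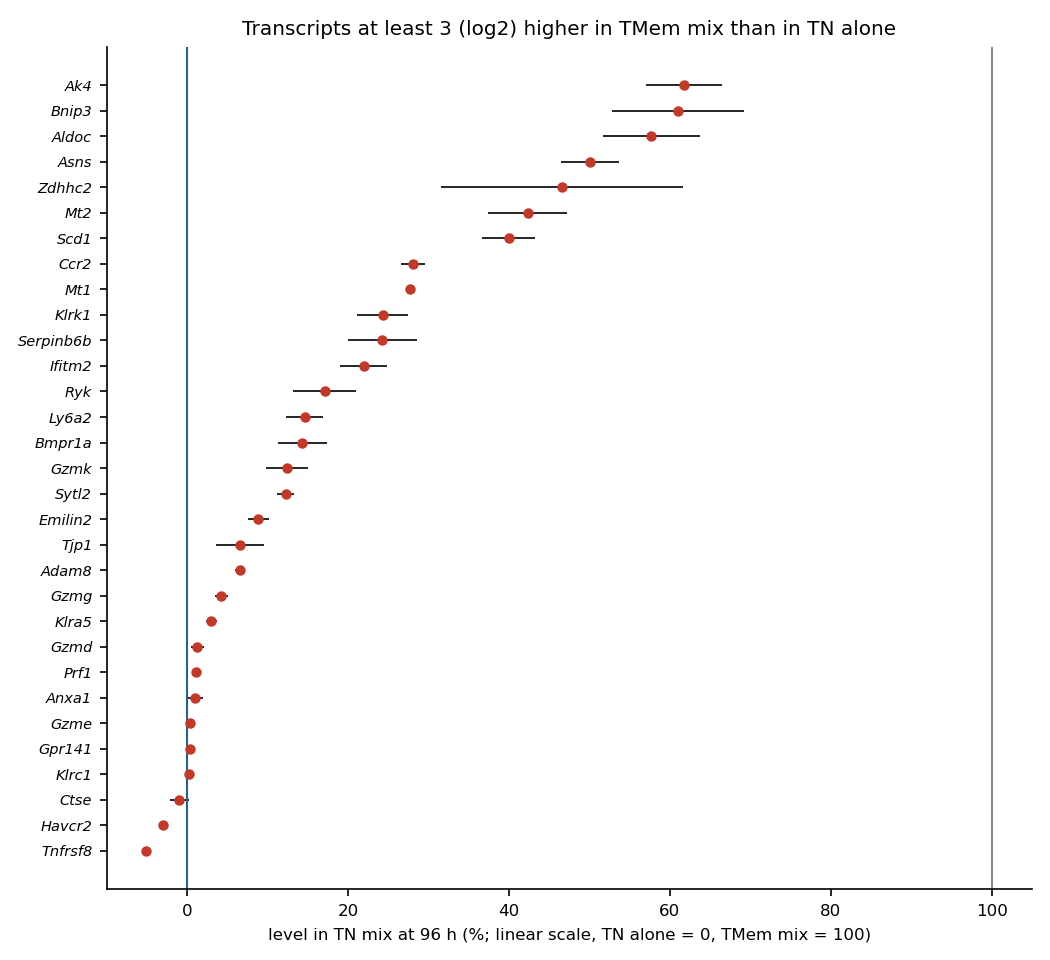
The 31 transcripts at least 3 higher (log2) in TMem mix than in TN alone are placed by the linear position of TN mix between TN alone (0%) and TMem mix (100%), with bars for the SD over the 3 TN mix arrays. Positions run from -5.2% for Tnfrsf8 to 61.8% for Ak4, with Gzme, Klrc1, Prf1 and Gzmd near 0%, Gzmk at 12.4%, Serpinb6b at 24.3%, and the metabolic genes Aldoc and Ak4 at the upper end.

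Regulators of the effector and naive states shifted in part. Of 23 effector regulators 11 were higher and 2 lower, with a median of 0.32, and of 18 naive genes 1 was higher and 9 lower, with a median of -0.36. Over both, the count of 12 higher genes was 7 without TN mix replicate 2 or TN alone replicate 3. Il7r, the survival receptor of resting T cells, read 9.53, 9.29 and 9.49 in TN mix, against 10.71, 10.56 and 10.61 in TN alone, 2.28-fold lower (adjusted p = 5.02e-06), although TMem mix averaged 10.77. Klf2 and Klf3, which hold T cells quiescent, were lower by 0.68 and 0.83, Il6ra by 1.21 and Bcl11b, a T cell identity factor, by 0.34. On the effector side Bhlhe40 (0.90), Nfil3 (0.78) and Stat4 (0.56) rose, while Tbx21, which encodes T-bet, did not pass (0.23, adjusted p = 0.380). Eomes, its relative, read 10.71, 10.76 and 10.68 in TN mix, against 10.42, 10.41 and 10.37 in TN alone (adjusted p = 0.0148). That call was lost without TN mix replicate 2 (adjusted p = 0.0626) or TN alone replicate 3 (adjusted p = 0.0614), and the difference had been 1.27 at 18 h. Satb1, a chromatin organizer counted with the naive genes, was the member that rose (0.63), and Ikzf2 and Ikzf3, the factors Helios and Aiolos, fell by 1.02 and 0.53.

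Inhibitory receptors were lower more often than higher, with 7 of 20 down and 2 up. Pdcd1, which encodes PD-1, read 7.26, 7.54 and 7.14 in TN mix, against 8.05, 8.41 and 8.32 in TN alone, 1.93-fold lower (adjusted p = 8.05e-07) and below the 7.78 of TMem mix. Cd244a, Cd200 and Cd200r1 were lower by 0.90, 0.88 and 1.06, and Lag3 by 0.32. Entpd1, the ectonucleotidase CD39, was higher by 1.24 while Nt5e (CD73), which completes the same reaction to adenosine, was lower by 0.76. The 19 costimulatory genes were split, 6 higher and 6 lower, with Cd28 (0.69) and Klrk1 (1.54) among the rises. Cd80, a ligand of CD28 that activated T cells also carry, read 7.23, 7.46 and 7.21 in TN mix, against 8.63, 8.90 and 8.86 in TN alone (adjusted p = 1.86e-09), and TMem mix averaged 9.22.

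Genes that report recent receptor signals did not move in 1 direction. Nr4a3, an orphan nuclear receptor induced by the T cell receptor, read 7.40, 7.46 and 7.26 in TN mix, against 8.69, 8.80 and 8.88 in TN alone, 2.67-fold lower (adjusted p = 2.98e-06). Nr4a1, Egr2 and Egr3 were lower by 1.03, 0.74 and 0.62, and Egr1 was higher by 0.81. Fosb, an AP-1 subunit, read 8.39, 8.45 and 8.25 in TN mix, against 7.07, 7.07 and 6.94 in TN alone (adjusted p = 3.27e-11), and Fos was higher by 0.96. Dusp6, a phosphatase that is induced by and turns off ERK, read 9.63, 9.84 and 9.70 in TN mix, against 7.84, 7.94 and 7.92 in TN alone (adjusted p = 1.45e-12). The NR4A and EGR group thus had 4 lower and 1 higher of 6 and the AP-1 group 7 higher and 2 lower of 9. All 36 members of the list gave 19 higher and 9 lower, with a median of 0.35, and 11 were higher without TN mix replicate 2. Of 32 cytokine receptors and SOCS genes, 3 were higher, including Il12rb2 (0.72) and Ifngr1 (0.81), and 8 lower, including Il6st (lower by 0.64) and Socs1 (lower by 0.48). The lower count was 5 without TN mix replicate 3 or TN alone replicate 1 or 2.

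Interferon response genes were mixed. Ifit3 read 9.13, 9.21 and 9.18 in TN mix, against 10.62, 10.71 and 10.61 in TN alone (adjusted p = 1.27e-06), with TMem mix at 7.46. Oas3 (0.92), Rsad2 (0.89), Irf7 (0.67) and Mx2 (0.64), all antiviral genes, were higher. The list of 27 had 6 higher and 1 lower, and a median of 0.06. Of 19 genes of the interferon gamma response and class I presentation 1 was higher and 3 were lower, and the higher call ended without TN mix replicate 2 or TN alone replicate 1 or 2. Among p53 targets 5 of 20 were lower, led by Phlda3 (lower by 0.94) and Zmat3 (lower by 0.84), and 1 was higher, Sesn1, whose call was lost with the replicate block (adjusted p = 0.0515). Of 18 apoptosis regulators 1 was higher and 1 lower, and the higher call ended without TN mix replicate 1 or 2 or TN alone replicate 2 or 3.

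Transcripts known as markers of other cell types were among the largest falls. Of the 67 large falls, 14 were in the lists of such markers or of MHC class II genes. H2-Aa, an MHC class II chain, read 6.59, 6.75 and 6.53 in TN mix, against 9.35, 9.54 and 9.48 in TN alone, 7.13-fold lower (adjusted p = 1.6e-12). Lyz2, the lysozyme of myeloid cells, read 5.73, 5.39 and 5.29 in TN mix, against 8.20, 8.20 and 8.37 in TN alone, 6.92-fold lower (adjusted p = 3.27e-11). In TN alone at 0 h H2-Aa and Lyz2 averaged 6.52 and 5.84, and at 18 h 6.18 and 5.80, so the signal was high in the 96 h arrays of TN alone and near the TN mix level before. Cpa3, a mast cell protease, read 6.55, 7.47 and 6.54 in TN mix, against 8.49, 8.64 and 8.60 in TN alone, 3.31-fold lower (adjusted p = 5.7e-05). Kit and Mcpt8, further mast cell and basophil genes, were lower by 1.26 and 1.32. Among the NK cell markers Klrb1b and Ncr1 were lower by 1.67 and 0.93, while Klrk1 was higher by 1.54. The 17 NK markers had 3 lower and 2 higher. Gpr83, known from regulatory T cells, read 6.27, 6.21 and 6.18 in TN mix, against 8.43, 8.85 and 8.85 in TN alone, 5.63-fold lower (adjusted p = 3.37e-11), but it was also 7.86 in TN alone at 0 h.

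The genes named above were picked for their falls, so the marker lists are also given as wholes. Over all autosomal genes 7.02% were higher and 3.66% lower. Of 24 myeloid markers 3 were lower (12.5%), and of 14 mast cell markers 5 (35.7%). Of 8 MHC class II genes 5 were lower (62.5%) and 1 higher (12.5%). Of 17 NK markers 3 were lower (17.6%) and 2 higher (11.8%), and of 12 B cell markers 1 was lower (8.33%). Of 14 markers of CD4 and regulatory T cells, Gpr83 among them, 6 were lower (42.9%) and 2 higher (14.3%). Of 5 gamma delta and innate-like T cell markers 2 were lower (40.0%). Of 8 erythroid and platelet markers 1 was lower and 1 higher (12.5% each). The 2 higher CD4 markers were 1 without TN alone replicate 1 or 3 or any TN mix replicate, and the 2 lower gamma delta markers were 1 without TN mix replicate 2 or 3 or TN alone replicate 1 or 2, and 0 without TN alone replicate 3. The log2 of the summed linear level of the myeloid list was 11.4 in TN mix, against 12.1 to 12.2 in TN alone. The sum of the MHC class II list was 11.1 to 11.3 in TN mix, against 11.9 to 12.1 in TN alone, and that of the mast cell list 9.86 to 9.98 in TN mix, against 10.5 to 10.6 in TN alone. The B cell sum was 10.1 to 10.2 in TN mix, against 10.4 to 10.5 in TN alone, and the gamma delta sum 9.11 to 9.34 in TN mix, against 9.41 to 9.50 in TN alone. Sums ran the other way for the NK list, 12.96 to 13.03 in TN mix, against 12.85 to 12.89 in TN alone, and for the erythroid and platelet list, 11.3 to 11.6 in TN mix, against 11.07 to 11.12 in TN alone. The sums overlapped for the CD4 and regulatory T cell list, 13.58 to 13.66 in TN mix, against 13.63 to 13.72 in TN alone, and for the CD8 markers, 14.7 to 14.8 in TN mix, against 14.77 to 14.79 in TN alone. Among the myeloid markers, 9 of 24 in TN mix and 6 of 24 in TN alone lay under the lower quartile of their arrays. The call of the higher MHC class II gene, H2-Oa, ended without TN mix replicate 2 or 3 or any TN alone replicate, and the 2 higher NK markers were 1 without TN mix replicate 2 or TN alone replicate 3. The part of such cells in the comparison was not tested.

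Several of the 20 largest rises and falls belonged to none of the lists. Idh1, the cytosolic isocitrate dehydrogenase that yields NADPH, read 7.42, 8.32 and 8.06 in TN mix, against 5.72, 6.19 and 6.16 in TN alone (log2 difference 1.91 ± 0.21 SE, adjusted p = 2.65e-07). Zdhhc2, a palmitoyl transferase, read 8.84, 9.64 and 9.57 in TN mix, against 6.17, 6.82 and 6.71 in TN alone (adjusted p = 3.98e-09). In both, replicate 1 was the lowest array of either group, and the groups were well apart. Mgarp, a mitochondrial protein known as a HIF-1 target (1.81), Pik3ap1, an adapter of PI3 kinase (1.71), Itih5, of hyaluronan binding (1.75), and Ly6a2, of the Ly6 family (2.64), rose as well. On the side of the falls, Rbpms, an RNA-binding protein, read 6.10, 6.17 and 6.04 in TN mix, against 7.57, 7.47 and 7.72 in TN alone (adjusted p = 1.45e-12). Adgrg1, the adhesion receptor GPR56 of cytotoxic lymphocytes, was lower by 1.37, and the zinc finger gene Zfp948 was lower by 1.41 with its lowest value of 6.46 in TN mix replicate 2.

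Some genes in TN mix went outside the span of both other 96 h groups. By the same fit, 132 genes (0.691%) were higher and 106 (0.555%) lower than both TN alone and TMem mix. Falls of this kind included Ifng, Cd80, Nr4a3, Il7r, Pdcd1 and Lgals3, which encodes galectin-3 and read 8.82, 8.73 and 8.61 in TN mix, against 10.55, 10.72 and 10.61 in TN alone, with TMem mix at 11.59. Rises included Cxcl10, Rsad2, Il12rb2 and Cd69, an early activation marker that was higher by 0.70.

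The difference between TN mix and TN alone at 96 h was not that at 18 h. Y-linked genes changed with time as well, with differences of 3.48 at 96 h and 0.22 at 18 h for Eif2s3y. The differences were 2.59 and -0.16 for Uty, and 1.90 and -0.11 for Kdm5d. The sex or source of the donors and the time of mixing thus cannot be told apart in this contrast. The difference between the effects at the 2 times passed for 2393 genes (12.5%). Scd1 differed by 4.69 at 96 h and by 0.56 at 18 h, Bnip3 by 3.02 and 0.04, and Aldoc by 2.70 and -0.31, and these differences of 4.13, 2.98 and 3.01 between the times all passed. Dusp6 even changed sign, with 1.82 at 96 h and -0.58 at 18 h, both called. Scd2 (1.79 and 1.39), S1pr1 (-1.15 and -1.20) and Il7r (-1.19 and -1.61) were called at both times. Among the 111 large rises at 96 h, 18 were called in the same direction at 18 h and 8 in the opposite one, and among the 67 large falls 14 and 5.

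The effect of mixing on naive cells also differed from that on memory cells at 96 h. The difference between the cell types passed for 679 genes (3.55%), and it was positive for Scd1 (4.44), Mt2 (3.50), Ak4 (3.31), Bnip3 (2.84) and Zdhhc2 (2.77). It was negative for H2-Aa (-2.91), Ifit3 (-2.62), Ifng (-2.61), Lyz2 (-2.58) and Gpr83 (-2.54). The Y-linked signal that set TN mix apart from TN alone was high in all TMem arrays, so donors and mixing cannot be told apart in this contrast either.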

How the data were processed

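Sorted cells gave RNA that was biotin-labelled and hybridized to Affymetrix arrays, per the labels' protocols. The authors deposited log2 values per probe set, made with RMA and Partek, per the submitters' processing notes, whose versions and order are not given in those notes. The table held 35556 rows. A single gene symbol stood on 21789 rows, which were analysed, several on 1621, and none here on 12146. For 999 genes with several rows the row of highest mean was taken, giving 19938 genes, and genes at low values were kept.

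All 30 arrays entered 1 fit with a mean for each of 10 groups (limma 3.58.1, lmFit and eBayes, R 4.3.3), which leaves 20 residual degrees of freedom. Tests were 2-sided, p-values were adjusted over all genes of a contrast by Benjamini-Hochberg, and 0.05 was the limit below which a gene counts as called. Standard errors (SE) came from the same fit. Differences between effects were contrasts of it. An exact permutation test of 3 against 3 arrays cannot go below p = 0.1 and was not used. The fit was tested on simulated data.

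The genes and lists were chosen with earlier results of these data known. Genes named are the 20 largest calls each way with arrays that do not overlap, members of the lists, cell type markers, and the 5 largest differences each way between effects, without predicted genes or receptor segments. Deviations of same-numbered TN mix and TN alone arrays correlated at 0.489, 0.312 and 0.137, and those of differently numbered arrays at -0.381 to 0.162. Pairing by number was thus not settled. The main fit did not pair the arrays, and a fit with the number as a block was an alternative. Other alternatives were array centring, quantile normalization, array weights, leaving out single arrays or the 0 h groups, a filter on low genes, the mean of a gene's rows, and stricter calls. Taking the Gzmd share away from TN mix was chosen after seeing the data. Chromosomes, names and promoters came from RefSeq tables (GRCm38.p6) with 32851 promoters of 27025 genes. Scanner files, scan dates and detection calls were not used here.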

Additional observations from a re-analysis of the deposited data

Results flagged for a closer look

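The effect of mixing on naive cells differed between 96 h and 18 h for 2393 genes by the test of the difference itself (limma contrast, adjusted p under 0.05). The difference, 96 h minus 18 h on the log2 scale, was 4.13 for Scd1, 3.01 for Aldoc, 2.98 for Bnip3, 2.83 for Ak4 and 2.75 for Ly6a2. It was -3.45 for Ifng, -2.63 for Il3, a growth factor of myeloid cells that was under the lower quartile of the arrays in both 96 h groups, -2.62 for H2-Aa, -2.56 for Cd74 and -2.39 for Tnfsf4.

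The effect at 96 h differed between naive and memory cells for 679 genes by the same kind of test. The difference, TN minus TMem, was 4.44 for Scd1, 3.50 for Mt2, 3.31 for Ak4, 2.84 for Bnip3 and 2.77 for Zdhhc2, and it was -2.91 for H2-Aa, -2.62 for Ifit3, -2.61 for Ifng, -2.58 for Lyz2 and -2.54 for Gpr83.

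Y-linked genes, which lie outside the autosomal comparison, were at 96 h higher in TN mix than in TN alone by 3.48 for Eif2s3y, 2.59 for Uty and 1.90 for Kdm5d. At 18 h the same differences were 0.22, -0.16 and -0.11, so both differences between effects given above carry this limit of the donors. The part of donor sex in the autosomal differences was not tested.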

How the results depend on the processing

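The 1341 genes higher in TN mix were 886 after each array was centred on its median, 3677 with array weights, 843 at an adjusted p under 0.01 and 111 with a difference of at least 1, and 892 to 1410 with single arrays left out. The 699 lower genes were 1141 without the 0 h arrays, 1156 after quantile normalization, 2424 with array weights, 396 at 0.01, 67 with a difference of at least 1, and 434 to 614 with single arrays left out. The 2393 genes whose effect differed between the times were 3750 without the 0 h arrays, 4981 with array weights, 1290 at 0.01, 330 at a size of 1, and 1822 to 2316 with single arrays left out. The 679 that differed between the cell types were 1146 in the fit of those groups only, 1380 without the 0 h arrays, 3082 with array weights, 394 at 0.01, 162 at a size of 1, and 533 to 723 with single arrays left out. The cause of these shifts was not tested, except that a stricter rule calls fewer genes by construction.

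With the replicate number as a block the counts were 1271 higher, 669 lower, 2283 between the times and 639 between the cell types, and beside Scap, Cdc45 and Sesn1 it changed no other call of a gene named in the text. Of 158 genes followed, 145 were called, 7 of them lost the call in some setting (Cdc45, Eomes, H2-Oa, Havcr2, Scap, Sesn1 and Tnfrsf8), and 5 others gained one (Cd3e, Il3, Mtf1, Prf1 and Tbx21). Centring brought the higher effector and naive regulators to 7, and without the 0 h arrays the higher homing genes were 11 and the lower cytokine genes 14. No gene turned direction where called, and none of 20 followed differences between effects lost its call. The arrays have no detection calls, so genes near the lower quartile (5.92 in TN alone) have uncertain folds.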
